A study of Mus musculus with 8 samples.

Results

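The 42 genes described here encode clotting factors, the proteins that limit and dissolve clots, serpins (serine protease inhibitors) and other abundant plasma proteins. They were chosen by name, as rows of the deposited liver tables whose gene symbol is on a fixed list, and all 42 were found among the 16796 genes listed. The data are RNA sequencing profiles of whole liver from 4 E4bp4-LKO mice (143, 144, 145 and 179), described as lacking E4bp4 in the liver, and 4 WT mice (164, 165, 166 and 167), with 1 library per mouse. All 8 mice entered a diet that induces non-alcoholic steatohepatitis (NASH), a fatty and inflamed liver, at 2 months of age and stayed on it for 20 weeks, so the comparison is of genotype under this diet. The Cre line behind the knockout, the alleles that the WT mice carry, and the strain, sex and kinship of these animals were not given in the sources used here. Values per mouse are given in the order of mouse numbers above, and p-values measure the spread between these mice.

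Blood clots when a chain of serine proteases, made mostly by hepatocytes as inactive precursors, ends in thrombin, which cuts fibrinogen into the fibrin mesh. Serpins stop such proteases by offering a bait loop that traps the enzyme, and plasmin later dissolves the mesh. Hepatocytes also release carriers of hormones and lipids and proteins of the acute phase, the change in plasma proteins that accompanies inflammation. E4BP4, the protein made from Nfil3, is a clock-linked transcription factor that represses genes through D-box sites.

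Nfil3 measured 3.33, 6.22, 6.14 and 3.35 CPM (counts scaled to a common library size by TMM) in E4bp4-LKO livers, against 11.4, 8.79, 12.1 and 16.5 CPM in WT livers. It fell in E4bp4-LKO (log2 fold change -1.35, SE 0.25, edgeR adjusted p = 0.0121, exact two-sided permutation p = 0.0286, the smallest that 70 arrangements allow), and it was not at 0 in any library. Libraries held 23805540 to 32290265 expected counts. The Y-linked transcripts Ddx3y, Eif2s3y, Kdm5d and Uty were present in all 8 libraries, with sums of 128 to 152 CPM in E4bp4-LKO and 123 to 134 CPM in WT. TMM factors were 0.941 to 0.963 in the E4bp4-LKO libraries, and 1.16, 1.09, 1.00 and 0.984 in the WT libraries. WT 164 and 165 thus stand apart in composition. Calls that were lost without both of them are given as such beside the gene or its list.

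Of the 41 members that could be tested, 10 were higher in E4bp4-LKO livers and 2 were lower, by edgeR's quasi-likelihood test at a Benjamini-Hochberg adjusted p under 0.05. The genes that rose were the alpha-1-antitrypsin copies Serpina1a, Serpina1c, Serpina1d and Serpina1e, the antichymotrypsin-family gene Serpina3k, Serpina11, the contact-system proteases Klkb1 and F11, the factor XIII carrier F13b and the platelet-adhesion protein Vwf. The genes that fell were the thyroxine carrier Serpina7 and Serpina3n. Higher members made up 24.4% of those tested, where 4.36% of all 13244 genes tested were higher. Lower members made up 4.88%, where 6.48% of all genes were lower (10.8% in either direction). Among the higher members, 4 are Serpina1 copies that can share reads, so their calls are not separate. The member list was also chosen with earlier results of these data known. The members' median log2 fold change was 0.30, against 0.01 over all genes tested, and 35 members were above 0 and 6 below. An unadjusted edgeR p under 0.05 was reached by 28 of the 41 members and by 3748 of all 13244 genes tested. Counts at that unadjusted p in the lists below are to be read beside this.

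Most members are strongly expressed, and 29 of the 42 had a mean of at least 100 FPKM (fragments per kilobase of transcript, scaled to library size). Among the 4654 genes with a mean FPKM of 10 or more, 6.17% were higher and 5.91% lower, and of the 38 members at that level 9 were higher and 2 lower. By TMM-scaled CPM, all 4 E4bp4-LKO livers lay above all 4 WT livers for 15 of the 41 members and below them for 4, where 8.8% and 9.68% of all genes did so. Overlap of groups below is by CPM unless stated. Serpina3c was the member left untested, with 2.09 to 13.97 expected counts in a library.

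**Figure D1:**
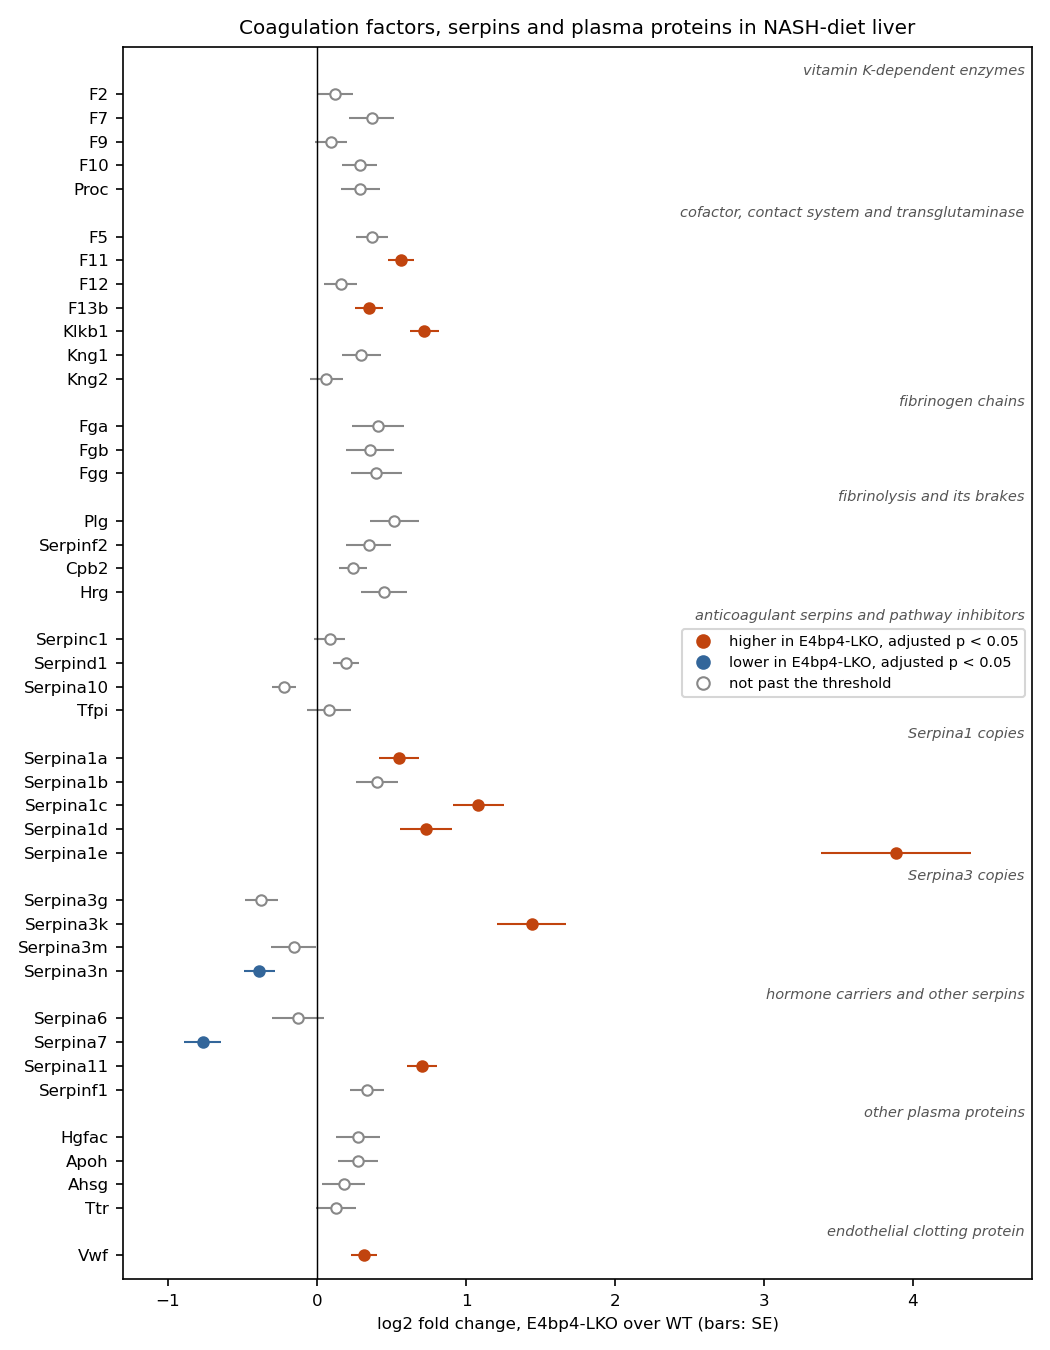
Log2 fold change of each tested member, E4bp4-LKO over WT, with its SE as a horizontal bar, grouped by role (n = 4 livers each). Filled points passed the adjusted p of 0.05: 10 lie to the right of 0, with Serpina1e farthest at 3.89, and Serpina3n and Serpina7 lie to the left.

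Scaling moved the members with all other genes. When library totals replaced TMM, the all-gene median shifted by -0.158, the members' median was 0.15, and 29 members were above 0 and 12 below. Under that scaling 8 members were called higher and 4 lower, and over all genes 291 were higher (2.2%) and 1660 lower (12.5%), against 578 and 858 with TMM. F13b and Vwf were then no longer called, and the lower members Serpina10 and Serpina3g were added. The same exchange took place with limma on log2(FPKM + 1), which shifted the all-gene median by -0.12 and called 15.4% of genes. Direction below is that under TMM scaling. DESeq2 called 18 members, against 15.8% of all genes, adding F5, Hrg, Plg, Serpina1b, Serpina3g and Serpinf1, and fits that left out 1 mouse called 3.78% to 11.5% of all genes.

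The copies of alpha-1-antitrypsin held the largest log2 fold change among the members, that of Serpina1e. Serpina1a to Serpina1e are neighbouring mouse copies of the gene that in human is the single SERPINA1, whose product protects tissue from neutrophil elastase. Their coding sequences have 1242 bases each and are 96.3% to 98.5% identical in pairs, with 86 positions that differ in at least 1 copy. The 60 coding bases with the most such positions, bases 1102 to 1161 (codons 368 to 387 of 413), hold 18 of them, where the median over all windows of that length is 4. This stretch is shown because it is the densest in differences between the copies, and in human alpha-1-antitrypsin it encodes the reactive centre loop, the bait for the protease. Capitals mark bases that differ from Serpina1a, 6 in Serpina1b, 10 in Serpina1c, 9 in Serpina1d and 12 in Serpina1e (GENCODE M21 transcripts, GRCm38, 5′ to 3′):
Serpina1a: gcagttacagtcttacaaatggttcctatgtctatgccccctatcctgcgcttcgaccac
Serpina1b: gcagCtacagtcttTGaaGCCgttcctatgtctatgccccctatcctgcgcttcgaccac
Serpina1c: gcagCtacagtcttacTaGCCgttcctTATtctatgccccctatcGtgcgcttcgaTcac
Serpina1d: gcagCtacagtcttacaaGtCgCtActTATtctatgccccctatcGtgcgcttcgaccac
Serpina1e: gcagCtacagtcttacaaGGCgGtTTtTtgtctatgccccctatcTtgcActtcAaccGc

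Serpina1e (Entrez Gene 20704) had 928, 894, 1009.9 and 1836 CPM in E4bp4-LKO livers, against 31.4, 66.4, 150 and 66.9 CPM in WT livers. Every E4bp4-LKO liver lay far above every WT liver, with mouse 179 highest. The log2 fold change of 3.89 (SE 0.50, edgeR adjusted p = 0.00495) stands for a 14.8-fold higher level. Serpina1e was called in all 8 fits that left out 1 mouse, and had an adjusted p of 0.0518 with a log2 fold change of 3.43 without WT 164 and 165 together. Of the 5 copies it was the rarest in both genotypes: it held 5.38%, 4.34%, 5.09% and 9.12% of the copies' summed FPKM in E4bp4-LKO livers, and 0.38%, 0.60%, 1.16% and 0.52% in WT livers.

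Serpina1c (Entrez Gene 20702) had 6106, 8073, 7664 and 7439 CPM in E4bp4-LKO livers, against 2453, 3312, 4006 and 4060 CPM in WT livers (log2 fold change 1.08, SE 0.17, adjusted p = 0.00537). The lowest E4bp4-LKO liver was 143 and the lowest WT liver 164, and the groups were well apart. Serpina1d (Entrez Gene 20703) had 2768, 3259, 3259 and 2786 CPM in E4bp4-LKO livers, against 1258, 1674, 2116 and 2222 CPM in WT livers (log2 fold change 0.73, SE 0.17, adjusted p = 0.0246). Serpina1a (Entrez Gene 20700) had 2693, 3309, 3023 and 3089 CPM in E4bp4-LKO livers, against 1621, 2048, 2318 and 2284 CPM in WT livers (log2 fold change 0.55, SE 0.13, adjusted p = 0.0283). For both, the groups did not overlap, and WT 164 was the lowest of all 8 livers. Leaving out WT 165 or either of E4bp4-LKO 144 and 145 ended the call of Serpina1d, with p up to 0.0784 after adjustment. Leaving out any of these or E4bp4-LKO 179 ended that of Serpina1a (up to 0.0885), as did leaving out WT 164 and 165 together (0.0714).

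Serpina1b (Entrez Gene 20701) was the copy that did not pass, at 5906, 6481, 6200 and 6292 CPM in E4bp4-LKO livers and 3570, 4708, 5323 and 5226 CPM in WT livers (log2 fold change 0.40, SE 0.14, adjusted p = 0.0869). Its groups did not overlap either, and DESeq2 called it (adjusted p = 0.0119). Per length, Serpina1c was the leading copy in every E4bp4-LKO liver, with 36.2% ± 1.65 of the copies' FPKM against 29.4% ± 0.798 in WT, and Serpina1b was the leading copy in every WT liver, with 30.7% ± 1.41 in E4bp4-LKO against 40.1% ± 1.22 in WT (SD, n = 4 each). Serpina1d held 14.8% ± 1.10 in E4bp4-LKO and 15.2% ± 0.929 in WT, an overlap of the groups. The 5 copies together summed to 18401, 22017, 21155 and 21441 CPM in E4bp4-LKO livers, against 8934, 11809, 13912 and 13859 CPM in WT livers, a ratio of means of 1.71 (1.56 by FPKM).

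Reads can be shared among these copies, and their expected counts were fractional in 7 or 8 libraries. Of all stretches of 100 bases in a transcript, 58.0% in Serpina1a, 58.5% in Serpina1c, 26.3% in Serpina1d, 24.6% in Serpina1b and 18.2% in Serpina1e are identical to a stretch of another copy. The value of each copy, Serpina1a and Serpina1c above all, therefore depends on how reads were split among them, and the sum over the copies does not.

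The 5 promoters share a stretch that is nearly alike. The 100 bases that end in a shared HNF1-like element are printed for each copy to show how alike they are beside the copies' values given above. The capitals mark the element GGTTAATATTCAC, which holds GTTAAT, a short form of the site of the hepatocyte factor HNF1, and ends 4 to 66 bases before the annotated start. The stretches match that of Serpina1a at 97 (Serpina1b), 98 (Serpina1c), 94 (Serpina1d) and 98 (Serpina1e) of 100 bases (RefSeq, GRCm38.p6, minus strand, 5′ to 3′; Serpina1a at chr12:103863629-103863728, Serpina1b at chr12:103738204-103738303, Serpina1c at chr12:103904966-103905065, Serpina1d at chr12:103773638-103773737, Serpina1e at chr12:103956964-103957063):
Serpina1a: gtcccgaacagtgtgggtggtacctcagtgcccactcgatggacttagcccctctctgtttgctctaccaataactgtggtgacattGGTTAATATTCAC
Serpina1b: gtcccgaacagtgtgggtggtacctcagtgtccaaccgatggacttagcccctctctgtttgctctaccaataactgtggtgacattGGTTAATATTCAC
Serpina1c: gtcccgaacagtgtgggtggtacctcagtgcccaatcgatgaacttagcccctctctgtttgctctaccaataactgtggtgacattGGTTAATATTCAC
Serpina1d: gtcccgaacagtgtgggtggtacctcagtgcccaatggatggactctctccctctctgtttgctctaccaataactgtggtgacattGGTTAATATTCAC
Serpina1e: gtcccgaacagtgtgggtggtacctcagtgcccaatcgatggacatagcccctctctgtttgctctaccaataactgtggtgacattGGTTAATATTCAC

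RefSeq promoters of 250 bases before to 50 after the start were at hand for 33 of the 42 members. GTTAAT, searched on both strands, was in 12 of them (F2, F13b, Fga, Fgb, Hgfac, the 5 Serpina1 copies, Serpina3c and Serpina7). It was in a promoter of 8.24% of the 27025 genes that have one, a gene with several promoters counting once. The D-box sequences TTATGTAA and TTACGTAA, the kind of element that E4BP4 binds, were in 0 of the 33 members and in 1.23% of those genes. This says only that these letters are not in the members' promoter windows. The STAT motif TTCNNNGAA was in 6 members (9.55% of those genes) and the C/EBP motifs TTGCGCAA, TTGCACAA and TTGCTCAA in 5 (2.44%). The element in capitals above was chosen from the Serpina1 sequences and was found in their promoters alone (0.0185% of those genes).

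**Figure D2:**
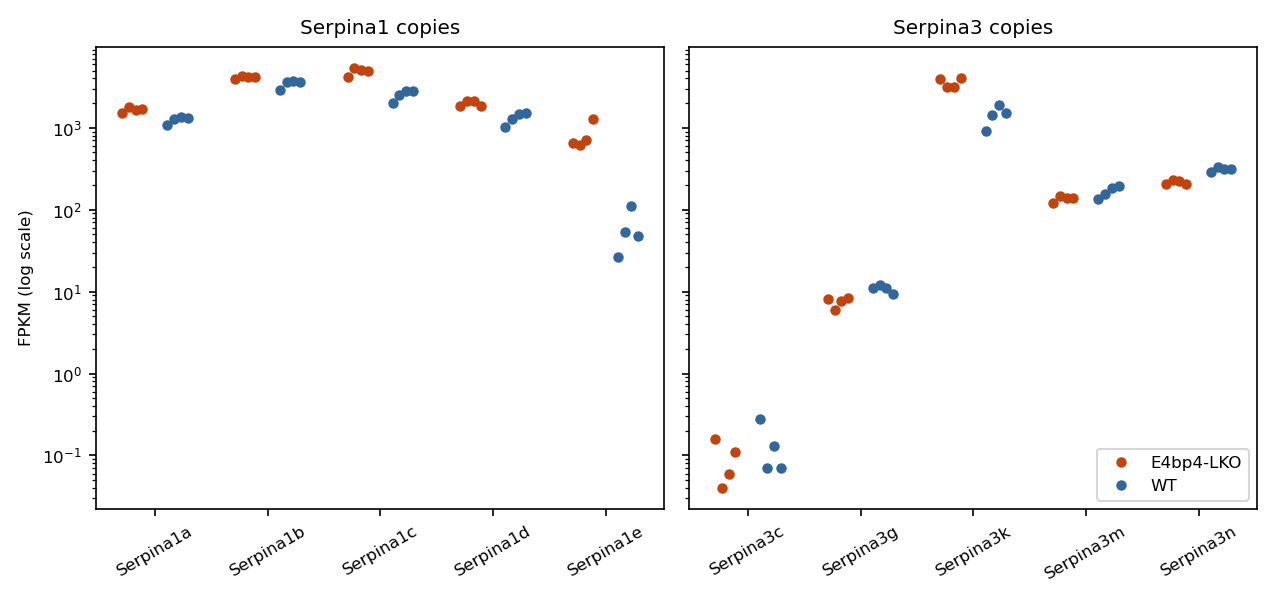
FPKM on a log scale of each Serpina1 copy (left) and each Serpina3 copy (right), 1 point per liver, with the 4 E4bp4-LKO livers left of the 4 WT livers. Serpina1e and Serpina3k show the widest gaps between the genotypes, Serpina3n is lower in E4bp4-LKO, and Serpina3c lies near the lowest values listed.

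The Serpina3 copies moved in opposite directions. This cluster is the mouse expansion of human SERPINA3, which encodes the inhibitor alpha-1-antichymotrypsin. Serpina3k (Entrez Gene 20714), also known as contrapsin, had 6666, 5588, 5491 and 7004 CPM in E4bp4-LKO livers, against 1293, 2185, 3096 and 2540 CPM in WT livers. It rose 2.72-fold (log2 fold change 1.44, SE 0.23, adjusted p = 0.00576), with no overlap, and stayed called in each of the 8 fits without 1 mouse (log2 fold change 1.25 to 1.63). Serpina3n (Entrez Gene 20716), an acute-phase inhibitor, had 442, 513, 492 and 454 CPM in E4bp4-LKO livers, against 522, 645, 654 and 663 CPM in WT livers. It fell (log2 fold change -0.39, SE 0.10, adjusted p = 0.0389) with no overlap, and its call held in 1 of the 8 fits that left out a mouse (adjusted p 0.0113 without WT 164, up to 0.11 in the others).

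Serpina3k thus made up 90.7% ± 1.53 of the cluster's FPKM in E4bp4-LKO livers and 73.8% ± 4.66 in WT livers (SD, n = 4 each), and Serpina3n 5.58% ± 0.948 in E4bp4-LKO and 16.8% ± 3.55 in WT. The ratio of Serpina3k to Serpina3n FPKM was 13.8 to 19.6 in E4bp4-LKO and 3.14 to 6.003 in WT. Serpina3g, an intracellular serpin of blood cells, measured 12.9 to 18.0 CPM in E4bp4-LKO and 19.1 to 22.7 CPM in WT (log2 fold change -0.37, adjusted p = 0.0557), without overlap. Serpina3m did not pass (-0.16, adjusted p = 0.54). Summed over the 5 copies the level was 7333, 6371, 6246 and 7722 CPM in E4bp4-LKO and 2032, 3093, 4075 and 3551 CPM in WT, a ratio of means of 2.17 (2.03 by FPKM). Stretches of 100 bases shared with another copy make up 4.85% of the Serpina3k transcript, 6.09% of Serpina3m and 0.0509% of Serpina3n, and counts of all 3 were fractional in all 8 libraries.

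Of the remaining serpins with other duties, Serpina11 rose and Serpina7 fell. Serpina11 (Entrez Gene 380780), a neighbour in the same cluster, had 55.9, 71.0, 70.4 and 66.1 CPM in E4bp4-LKO livers, against 35.5, 38.0, 45.3 and 42.7 CPM in WT livers (log2 fold change 0.71, SE 0.10, adjusted p = 0.00331). Serpina7 (Entrez Gene 331535), thyroxine-binding globulin, had 129, 103, 98.9 and 144 CPM in E4bp4-LKO livers, against 208, 225, 193 and 182 CPM in WT livers (log2 fold change -0.77, SE 0.12, adjusted p = 0.00576), a 1.70-fold lower level. Neither gene's groups overlapped, and both were called in all 8 fits without 1 mouse. Without WT 164 and 165 together Serpina7 had a log2 fold change of -0.65 and an adjusted p of 0.0521.

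The other hormone carrier among the serpins, Serpina6 or corticosteroid-binding globulin, did not pass, at 227 to 347 CPM in E4bp4-LKO and 239 to 428 CPM in WT (log2 fold change -0.13, SE 0.18, adjusted p = 0.686). Leaving out WT 167 turned its sign. Serpinf1, which encodes pigment epithelium-derived factor, had 668 to 758 CPM in E4bp4-LKO and 470 to 649 CPM in WT without overlap, and missed the threshold (0.33, adjusted p = 0.0803).

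The contact system starts clotting on charged surfaces and frees the vasoactive peptide bradykinin from kininogen. Klkb1 (Entrez Gene 16621), plasma prekallikrein, had 148, 189, 175 and 179 CPM in E4bp4-LKO livers, against 89.9, 112, 113 and 105 CPM in WT livers. It rose 1.65-fold (log2 fold change 0.72, SE 0.10, adjusted p = 0.00282), the smallest p among the members. F11 (Entrez Gene 109821), factor XI, the neighbour of Klkb1 in the RefSeq annotation, had 35.5, 36.9, 41.9 and 36.4 CPM in E4bp4-LKO livers, against 23.8, 23.6, 29.2 and 25.2 CPM in WT livers (log2 fold change 0.57, SE 0.09, adjusted p = 0.00497). Both were called in all 8 fits without 1 mouse and without WT 164 and 165 together (adjusted p = 0.00949 for Klkb1 and 0.0381 for F11). Per length Klkb1 stood 3.79 to 4.64 times above F11 in E4bp4-LKO livers and 3.44 to 4.29 times in WT livers.

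The partners of these proteases in the contact system did not pass. F12, the factor XII that sets the system off, had 448 to 530 CPM in E4bp4-LKO and 386 to 490 CPM in WT (log2 fold change 0.16, adjusted p = 0.381). Kng1 (Entrez Gene 16644), high in level and the source of bradykinin, had 1714, 2021, 2294 and 1814 CPM in E4bp4-LKO and 1314, 1581, 1774 and 1710 CPM in WT (0.30, SE 0.13, adjusted p = 0.168). Its copy Kng2 overlapped between the genotypes (0.06, adjusted p = 0.768) and was below 0 with library totals (-0.09) and with limma on FPKM. Counts of both kininogens were fractional in all libraries.

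F13b (Entrez Gene 14060), the subunit that carries the clot-crosslinking factor XIII in plasma, had 192, 201, 187 and 206 CPM in E4bp4-LKO livers, against 128, 152, 165 and 171 CPM in WT livers (log2 fold change 0.35, SE 0.10, adjusted p = 0.0411). The groups did not overlap, but the call held in only 1 of the 8 fits without a mouse, that without WT 167, and p was up to 0.107 in the others. It was not called without WT 164 and 165 together (adjusted p = 0.149). F5, the cofactor that speeds thrombin formation, stood close to the threshold at 786 to 1028 CPM in E4bp4-LKO and 665 to 762 CPM in WT (0.37, SE 0.11, adjusted p = 0.0507), also without overlap. By FPKM the groups of F5 overlapped (100.71 to 128.75 in E4bp4-LKO and 98.22 to 108.07 in WT). DESeq2 called it (adjusted p = 0.00316).

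**Figure D3:**
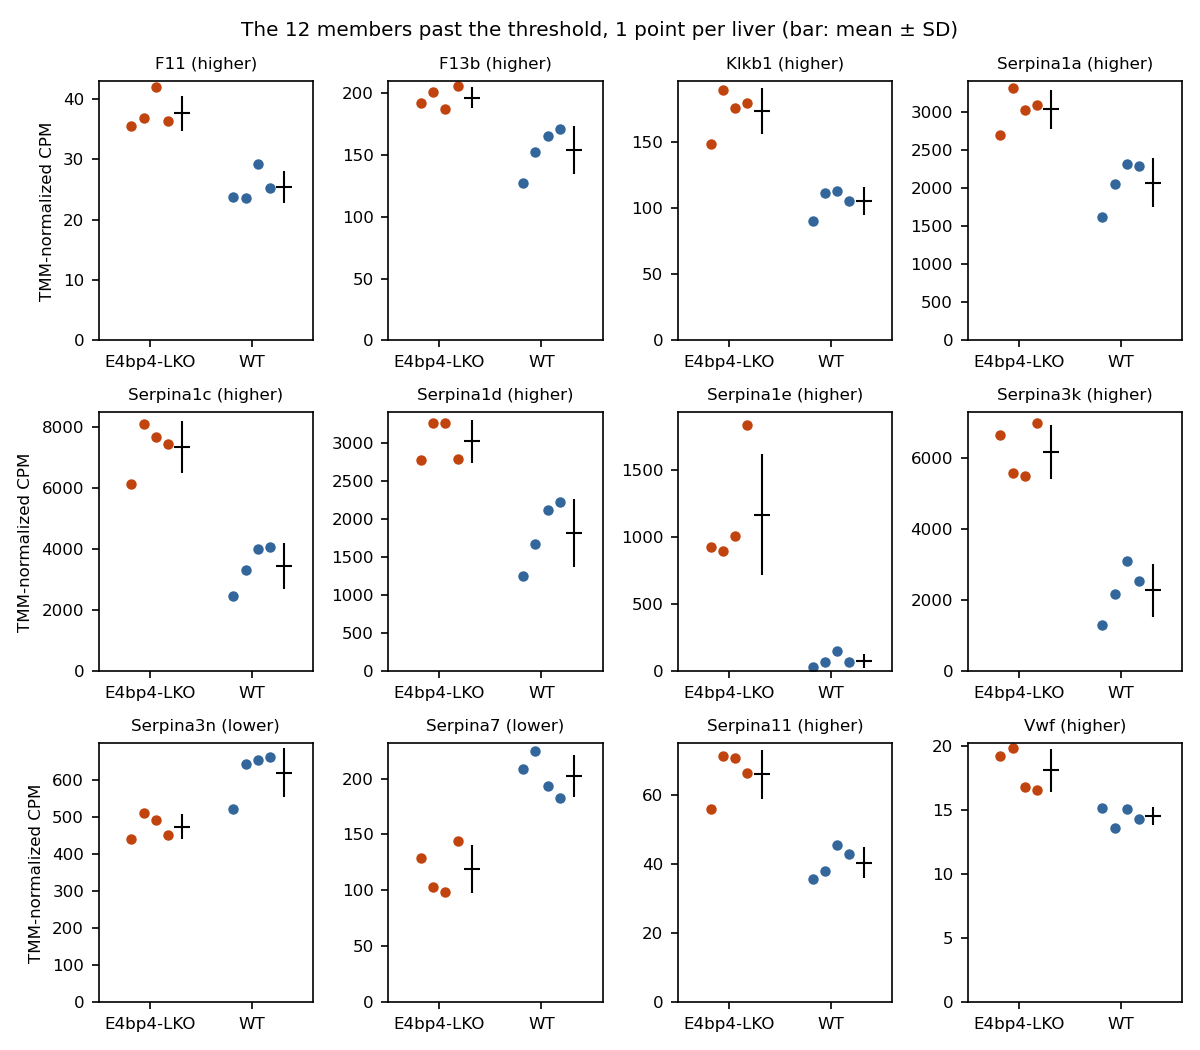
TMM-normalized CPM of the 12 members with an adjusted p under 0.05, 1 point per liver, E4bp4-LKO left of WT, with the mean and SD beside the points (n = 4 each). The genotypes do not overlap in any panel, and WT 164, the first WT point, is the lowest WT liver in 8 of the 10 panels marked higher.

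The proteases that need vitamin K were not called. None of F2, F7, F9, F10 and Proc passed by edgeR, 0 passed by DESeq2 and 0 by limma on FPKM, while 3 of 5 had an unadjusted p under 0.05. Prothrombin, encoded by F2 (Entrez Gene 14061), had 1299, 1519, 1563 and 1332 CPM in E4bp4-LKO livers and 1125, 1212, 1419 and 1501 CPM in WT livers. The groups overlapped (log2 fold change 0.12, SE 0.12, adjusted p = 0.569). With library totals its sign turned (-0.03), as did that of F9, the gene of haemophilia B (0.09 with TMM, -0.05 with totals). F7, which starts clotting together with tissue factor, had the highest log2 fold change of the 5 at 0.37 (adjusted p = 0.141), F10 and the anticoagulant protease gene Proc had 0.29 each (adjusted p = 0.139 for F10 and 0.17 for Proc), and F7 was called in the fit without E4bp4-LKO 143.

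Genes for the vitamin K cycle, which equips these proteases to bind calcium, were a list of 7 outside the members. Nqo1, a quinone reductase, fell (10.6 to 14.6 CPM in E4bp4-LKO, 16.5 to 20.7 CPM in WT, log2 fold change -0.53, SE 0.12, adjusted p = 0.0184, not called without WT 164 and 165 together at 0.0932), and 0 of the 7 were called higher by edgeR, with 3 at an unadjusted p under 0.05 in either direction and 3 called by DESeq2. The carboxylase Ggcx (0.26, adjusted p = 0.054) and the epoxide reductase Vkorc1 (0.30, adjusted p = 0.065) had groups that did not overlap by CPM, both higher in E4bp4-LKO. By FPKM the groups of both genes overlapped. Ggcx had 15.23 to 18.48 FPKM in E4bp4-LKO and 15.14 to 17.55 in WT, and Vkorc1 135 to 159 in E4bp4-LKO and 124 to 137 in WT.

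The fibrinogen chains kept together. Fga (Entrez Gene 14161) had 3197, 4541, 4746 and 2959 CPM in E4bp4-LKO livers and 2435, 2828, 3170 and 3191 CPM in WT livers (log2 fold change 0.41, SE 0.17, adjusted p = 0.148). Fgb (Entrez Gene 110135) had 2378, 3302, 3353 and 2193 CPM in E4bp4-LKO livers and 1866, 2147, 2380 and 2389 CPM in WT livers (0.35, SE 0.16, adjusted p = 0.176). Fgg (Entrez Gene 99571) had 1899, 2736, 2865 and 1834 CPM in E4bp4-LKO livers and 1481, 1680, 1936 and 1988 CPM in WT livers (0.40, SE 0.17, adjusted p = 0.154). E4bp4-LKO 144 and 145 were above every WT liver for each chain, and 143 and 179 were within or at the edge of the WT range.

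No chain passed by edgeR, DESeq2 or limma on FPKM, and all 3 had an unadjusted p under 0.05. The sum of the chains was 7474, 10579, 10964 and 6985 CPM in E4bp4-LKO and 5782, 6655, 7486 and 7569 CPM in WT. Within that sum the proportions were close: by FPKM Fga held 28.1% ± 0.353 in E4bp4-LKO and 27.7% ± 0.104 in WT, and Fgg 33.0% ± 0.488 in E4bp4-LKO and 32.7% ± 0.508 in WT (SD, n = 4 each). Erythroid marker genes ran the other way among E4bp4-LKO livers, with sums of 3602, 690.2, 499 and 1861 CPM in E4bp4-LKO against 3810, 954, 1567 and 1771 CPM in WT, and their part in the spread of fibrinogen was not tested.

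Plasminogen and the proteins that brake it had mean levels above those of WT livers and did not pass. Plg, the precursor of plasmin, had 1624 to 2314 CPM in E4bp4-LKO and 1120 to 1659 CPM in WT (log2 fold change 0.52, SE 0.16, adjusted p = 0.0633). Hrg, the histidine-rich glycoprotein that binds plasminogen and heparin, had 1132 to 1416 CPM in E4bp4-LKO and 674 to 1105 CPM in WT (0.45, SE 0.15, adjusted p = 0.0822), without overlap. The antiplasmin gene Serpinf2 (0.35, adjusted p = 0.159) and Cpb2 (0.24, adjusted p = 0.126), whose product trims fibrin so that plasmin binds it less, were also above 0. Thus 0 of 4 passed by edgeR, and all 4 had an unadjusted p under 0.05, as had 3748 of all 13244 genes tested. DESeq2 called Plg and Hrg (adjusted p = 0.00966 for Plg and 0.0218 for Hrg).

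The inhibitors that restrain clotting differed little in level. Serpinc1 (Entrez Gene 11905), antithrombin, had 1460, 1643, 1714 and 1500 CPM in E4bp4-LKO livers and 1354, 1442, 1535 and 1620 CPM in WT livers (log2 fold change 0.09, SE 0.10, adjusted p = 0.64), overlapping, and it was below 0 with library totals (-0.07). Serpind1, heparin cofactor II, differed by 0.20 on the log2 scale (adjusted p = 0.177). Tfpi, the inhibitor of the tissue factor pathway, measured 6.65 to 10.96 CPM in E4bp4-LKO and 7.22 to 9.001 CPM in WT (0.08, adjusted p = 0.78, and -0.08 with library totals). Serpina10, the protein Z-dependent inhibitor of factor Xa, was the member of this group with separate genotypes, at 122 to 135 CPM in E4bp4-LKO and 136 to 162 CPM in WT (-0.22, SE 0.08, adjusted p = 0.102), and it was called lower with library totals (-0.38, adjusted p = 0.00579). Of the 4, edgeR called 0, DESeq2 called 0, limma on FPKM called Serpina10, and 1 had an unadjusted p under 0.05.

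The remaining liver plasma proteins overlapped between the genotypes. Ttr (Entrez Gene 22139), the transthyretin that carries thyroxine and retinol-binding protein, had 4518, 4378, 4952 and 4670 CPM in E4bp4-LKO livers and 3309, 4119, 4720 and 4784 CPM in WT livers (log2 fold change 0.13, SE 0.13, adjusted p = 0.58, and -0.02 with library totals). Ahsg (Entrez Gene 11625), the mineral-binding fetuin-A, had 3593, 5304, 5026 and 4360 CPM in E4bp4-LKO livers and 3547, 3895, 4224 and 4488 CPM in WT livers (0.18, SE 0.14, adjusted p = 0.458). Apoh (Entrez Gene 11818), beta-2 glycoprotein I, had 1213, 1369, 1355 and 1377 CPM in E4bp4-LKO livers and 848, 1043, 1232 and 1268 CPM in WT livers (0.28, SE 0.13, adjusted p = 0.198). With Hgfac, the activator of hepatocyte growth factor (0.28, adjusted p = 0.261), 0 of 4 passed by edgeR, DESeq2 or limma on FPKM, and 0 had an unadjusted p under 0.05. The carriers of thyroxine therefore had a called fall for Serpina7 and no call for Ttr, a difference between genes that was not tested.

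Vwf (Entrez Gene 22371), a product of endothelial cells and megakaryocytes that tethers platelets and carries factor VIII, had 19.2, 19.9, 16.8 and 16.6 CPM in E4bp4-LKO livers, against 15.2, 13.6, 15.1 and 14.3 CPM in WT livers (log2 fold change 0.32, SE 0.09, adjusted p = 0.0415). The groups lay close together without overlap by CPM, and overlapped by FPKM (1.74 to 2.08 in E4bp4-LKO and 1.57 to 1.96 in WT). Vwf kept its call in 1 of the 8 fits without a mouse (adjusted p = 0.0486 without E4bp4-LKO 179, up to 0.119 in the others). It was not called without WT 164 and 165 together (adjusted p = 0.171). Of 12 endothelial markers 1 was higher, Ptprb (0.50, adjusted p = 0.0226, and 0.0997 with library totals), and their sums were 435 to 593 CPM in E4bp4-LKO and 420 to 454 CPM in WT, with E4bp4-LKO 143 highest. Of 12 platelet markers 6 could be tested and edgeR and DESeq2 called 0 (3 at an unadjusted p under 0.05), 7 were under 1 CPM in all libraries, and the sums were 6.49 to 18.7 CPM in E4bp4-LKO and 11.1 to 13.04 CPM in WT. The part of either cell type in the Vwf values was not tested.

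**Figure D4:**
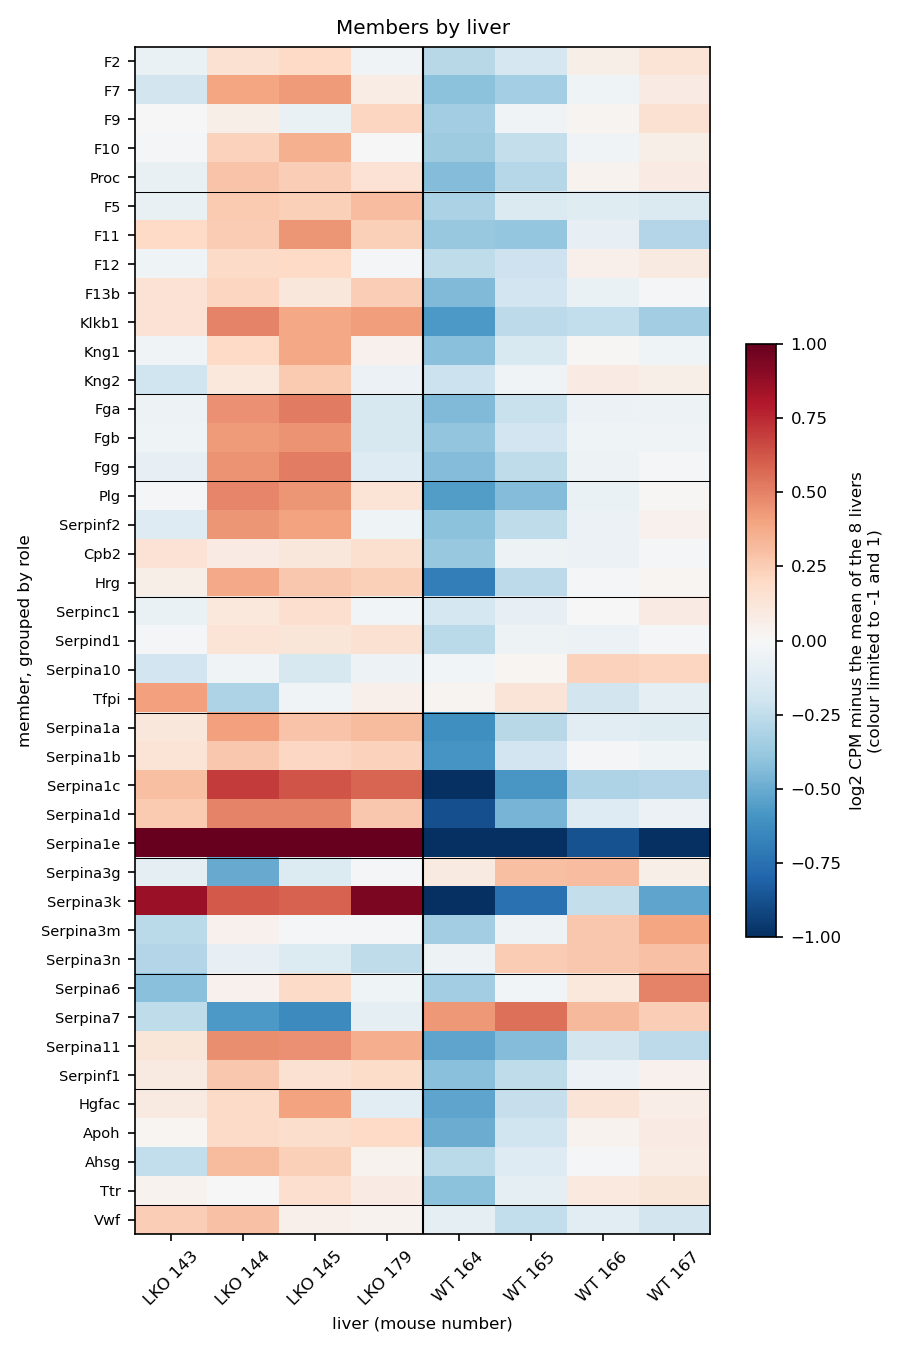
Log2 CPM of each tested member minus its mean over the 8 livers, with livers in columns (E4bp4-LKO left of the line, WT right) and members in rows by role, and colour limited to the range from -1 to 1. WT 164 is the lowest liver for 33 of the 41 members, and E4bp4-LKO 144 and 145 are darker red than 143 and 179 in the rows of the fibrinogen chains, Plg and Serpinf2.

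The livers also differed within a genotype in the same way for many members. WT 164 was the lowest WT liver for 36 of the 41 members by CPM and for 29 by FPKM, and E4bp4-LKO 143 was the lowest E4bp4-LKO liver for 27. E4bp4-LKO 144 and 145 were the highest pair of their group for 22 members. Together the 42 members made up 6.11%, 6.97%, 7.12% and 6.54% of all FPKM in E4bp4-LKO livers, and 4.71%, 5.40%, 5.63% and 5.59% in WT livers. Without WT 164 and 165 together, 7 members were called, where 2.89% of all genes were: Serpina1c, Serpina1d, Serpina3k, Serpina11, Klkb1 and F11 higher, and Serpina3n lower. The members' median log2 fold change was then 0.18.

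Marker genes of cell types also moved along these lines. Of 10 hepatocyte markers edgeR called 0, DESeq2 4 and limma on FPKM 1, with 5 at an unadjusted p under 0.05. Log2 fold changes were above 0 for 8 and below 0 for 2, among them Tat (-0.35, edgeR adjusted p = 0.0917). The sums were 81742 to 101170 CPM in E4bp4-LKO and 63415 to 84144 CPM in WT, with WT 164 lowest. Alb made up most of them (53382 to 68146 CPM in E4bp4-LKO, 43207 to 55064 CPM in WT). The ratio of mean sums was 1.18 by CPM and 1.06 by FPKM. Of 10 stellate cell markers 5 were lower in E4bp4-LKO. The sums were 712 to 933 CPM in E4bp4-LKO and 1009 to 1738 CPM in WT, with WT 164 highest. None of the 5 was called without WT 164 and 165 together (edgeR adjusted p 0.0521 to 0.242). Among them Dcn and Rgs5 were called in all 8 fits without 1 mouse, and the others in 2 to 4. Of 10 macrophage markers 4 were lower (sums of 596 to 780.5 CPM in E4bp4-LKO and 777 to 1102 CPM in WT). Without WT 164 and 165 together Cd68 was not called (edgeR adjusted p = 0.146), while C1qa, C1qb and C1qc were. Of 5 cholangiocyte markers tested 1, Spp1, was lower. It made up most of the list's sums (77.7 to 104 CPM in E4bp4-LKO and 191 to 472 CPM in WT). Spp1 alone measured 69.4 to 93.5 CPM in E4bp4-LKO and 177 to 437 CPM in WT. Krt19, Krt7, Epcam and Sox9 were also below 0, with overlapping groups and edgeR adjusted p of 0.0838 to 0.156. Of 10 lymphocyte markers and of 6 erythroid markers 1 each was higher, Jchain and Alas2. Neither was called without WT 164 and 165 together (edgeR adjusted p = 0.0854 for Jchain and 0.1185 for Alas2). Lymphocyte sums were 11.5 to 21.7 CPM in E4bp4-LKO and 8.88 to 14.2 CPM in WT. The part of cell makeup in the members' values was not tested, and in whole liver fewer cells of a type and less RNA per cell cannot be told apart.

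Of 27 other genes of clotting and fibrinolysis, 24 were tested, 3 rose and 4 fell, with a median log2 fold change of -0.04. The fallen genes were Plat, the tissue activator of plasminogen (1.33, 0.988, 1.76 and 0.982 CPM in E4bp4-LKO against 7.34, 4.58, 3.75 and 3.11 CPM in WT, log2 fold change -1.89, SE 0.30, adjusted p = 0.00537), Plaur, the urokinase receptor (-1.10, adjusted p = 0.0092), and Anxa2 (-1.02, adjusted p = 0.00309) and S100a10 (-0.53, adjusted p = 0.00979), whose products form a surface receptor for plasminogen. The groups did not overlap for any of the 4, and each was called in all 8 fits without 1 mouse. Without WT 164 and 165 together Plaur was not (adjusted p = 0.0576). The genes that rose were Serpine2, an inhibitor of thrombin and plasminogen activators (0.89, adjusted p = 0.0182), F3, tissue factor (0.70, adjusted p = 0.0252), and Lman1, the transport receptor for factors V and VIII (0.34, adjusted p = 0.0314). F3 and Lman1 each lost the call in 4 of the 8 fits without a mouse, and Serpine2 in 1. Without WT 164 and 165 together F3 (adjusted p = 0.0797) and Lman1 (0.148) were not called, nor were they with library totals (0.0729 and 0.105), and Serpine2 was called in both fits (0.00812 and 0.04997).

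Of 11 other serpin genes of the Serpina cluster 7 were listed and 3 tested, and edgeR called 0, with 3 at an unadjusted p under 0.05 and 2 called by DESeq2. Their log2 fold changes were 0.42 for Serpina12, -0.49 for Serpina3f and -1.03 for Serpina3i, the last at under 1 CPM in every library.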

How the data were processed

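RNA from 8 mouse livers was sequenced after enrichment by oligo-dT selection or ribosomal RNA depletion, per the labels' protocols. HISAT2 is named in the submitters' processing notes. Its version, the quantifier, the genome build, read length and strand were not given in the sources used here. In the deposited files, expected counts are estimated reads per gene, without normalization, and 25.9% to 27.3% of entries per library are fractional. The deposited FPKM values were normalized by the authors for length and library size, per the file headers and the values.

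Expected counts were rounded and tested in edgeR 4.0.16 (R 4.3.3): filterByExpr (minimum count 10, minimum total 15), TMM, robust quasi-likelihood test, E4bp4-LKO over WT, two-sided, Benjamini-Hochberg over 13244 genes, threshold 0.05. The SE is the absolute log2 fold change divided by the square root of F. CPM are TMM-scaled and FPKM compare genes. A count of 3, taken as the floor, stands for 0.0929 to 0.126 CPM, for counting error only. Fits were tested on simulated counts.

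Alternatives were DESeq2 1.42.0, its size factors in edgeR, library totals, no filter, at least 5 CPM in 4 libraries, limma 3.58.1 with trend on log2(FPKM + 1) or log2(FPKM + 0.1) for genes at 1 FPKM in at least 4 libraries, adjusted p under 0.1, each mouse left out, and WT 164 and 165 left out. In the text, limma on FPKM is that with a pseudocount of 1. Values per mouse are given for called members and for the 10 uncalled ones with the highest mean FPKM, the other members being given by ranges and tests, and up to 4 genes of each other list are named by smallest p. Members, lists and alternatives were chosen with earlier results of these data known, and the Y-linked list was added last.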

Additional observations from a re-analysis of the deposited data

Results flagged for a closer look

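In 86 groups of 4 livers (each of the 42 members and Nfil3, in each genotype), 5 values were highest or lowest with a gap to the next liver above Dixon's 95% critical share of the range, which chance gives in about 1 of 20 groups. Serpina1e in E4bp4-LKO 179 was at 1836 CPM, where the other E4bp4-LKO livers were at 894 to 1009.9 CPM. Apoh in E4bp4-LKO 143 was at 1213 CPM, where the others were at 1355 to 1377 CPM. In WT 164, F5 was at 664.5 CPM (747.9 to 761.6 CPM in the other WT livers), Cpb2 at 281.2 CPM (351.3 to 362.9 CPM) and Serpina3n at 522.4 CPM (645.2 to 663.3 CPM). Without E4bp4-LKO 179 Serpina1e remained called, and without WT 164 Serpina3n remained called.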

How the results depend on the processing

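The 12 called members were the same with DESeq2 size factors in edgeR and without a filter on low counts, and 11 of them remained with the filter at 5 CPM. Members called lower (2) were 4 with library totals and with both limma fits on FPKM, 1 without WT 164 and 165 together, and 1 to 2 over the fits without 1 mouse. Members called higher (10) were 6 without WT 164 and 165 and 6 to 11 without 1 mouse, and both directions together (12) were 7 and 7 to 13. Over all genes, 858 were lower: 1660 with totals, 1402 and 1449 with limma on log2(FPKM + 1) and log2(FPKM + 0.1), 205 without WT 164 and 165, 1405 at an adjusted p under 0.1, and 271 to 932 without 1 mouse. Higher genes (578) were 291 with totals, 972 with DESeq2, 257 and 260 with the limma fits, 182 without WT 164 and 165, 1083 at an adjusted p under 0.1, and 235 to 608 without 1 mouse. The 7 other clotting genes became 11 with DESeq2, 4 without WT 164 and 165, 12 at an adjusted p under 0.1, and 4 to 10 without 1 mouse. The causes were not tested. Summed levels of the Serpina1, Serpina3 and fibrinogen genes, which were not fitted, moved by less than the spread between mice in every alternative tried. Leaving out 1 of 4 mice can hardly move a mean beyond that spread, so it is no test of stability. Nfil3 stayed called in every fit run.

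Signs turned for 7 uncalled members. With totals, limma at pseudocount 1 and limma at 0.1, log2 fold changes were -0.0279, -0.0307 and -0.0307 for F2, -0.0542, -0.0536 and -0.0543 for F9, -0.0907, -0.1004 and -0.101 for Kng2, -0.0663, -0.0694 and -0.0695 for Serpinc1, -0.0818, -0.1338 and -0.1677 for Tfpi, and -0.0158, -0.0129 and -0.0129 for Ttr. Without WT 164 and 165 they were -0.0265 for F2, -0.0296 for F9, -0.0261 for Kng2 and -0.0325 for Ttr. Leaving out 1 mouse gave -0.0194 (without E4bp4-LKO 145) to 0.1341 for Kng2, -0.0637 (without E4bp4-LKO 143) to 0.1852 for Tfpi and -0.247 to 0.0375 (without WT 167) for Serpina6. No paired analysis was possible because the genotypes share no mouse numbers. Serpina3c, at 2.09 to 13.97 expected counts in a library, was below the filter on low counts and was not tested.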

Other observations

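Of 28 other plasma proteins secreted by liver, 27 were tested, 3 were higher and 3 lower in E4bp4-LKO livers (edgeR), with a median log2 fold change of 0.11. Among the genes that rose were Mug1, a murinoglobulin that traps proteases (2849, 4273, 3776 and 3869 CPM in E4bp4-LKO against 1574, 2048, 2446 and 2207 CPM in WT, log2 fold change 0.84, SE 0.16, adjusted p = 0.0121) and Fetub, fetuin-B, a neighbour of the members Ahsg, Hrg, Kng1 and Kng2 in the annotation (0.59, adjusted p = 0.0369). The genes that fell were Orm2, an orosomucoid (65.6, 37.9, 45.2 and 57.3 CPM in E4bp4-LKO against 107, 92.7, 97.5 and 101 CPM in WT, -0.95, SE 0.15, adjusted p = 0.00537), Apcs, serum amyloid P (-0.72, adjusted p = 0.0156), and Cp, the copper carrier ceruloplasmin (-0.37, adjusted p = 0.0389). The groups overlapped for none of these 5. Mug1 was also called without WT 164 and 165 together (adjusted p = 0.0473), and Fetub (0.144), Orm2 (0.058), Apcs (0.118) and Cp (0.127) were not.

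Of 15 transcription factors of liver, 3 were higher by edgeR and 0 lower, 6 had an unadjusted p under 0.05, and DESeq2 called 6 and limma on FPKM 1. Over all 13244 genes tested, 3748 had an unadjusted p under 0.05. Prox1 had 78.9, 88.8, 98.0 and 91.2 CPM in E4bp4-LKO livers, against 52.4, 48.5, 58.1 and 58.9 CPM in WT livers (log2 fold change 0.71, SE 0.09, adjusted p = 0.00166). Onecut1, or HNF6, had 6.995, 27.7, 9.92 and 19.8 CPM in E4bp4-LKO livers, against 4.97, 4.82, 5.997 and 5.14 CPM in WT livers (1.63, SE 0.40, adjusted p = 0.0366), a wide spread in E4bp4-LKO. Tef, an activator that binds the same D-box elements as E4BP4, also rose (0.34, SE 0.10, adjusted p = 0.0472), with 206 to 247 CPM in E4bp4-LKO and 157 to 199.8 CPM in WT. Prox1 was also called without WT 164 and 165 together (adjusted p = 0.00921), and Onecut1 (0.32) and Tef (0.176) were not. Prox1 was called in all 8 fits without 1 mouse, and Onecut1 and Tef in 2 each. Tef was not called with library totals (edgeR adjusted p = 0.1035) or by limma on FPKM (0.1004). Onecut1 was called with library totals (0.0312) and not by limma on FPKM (0.0648).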
